A study of Mus musculus with 6 samples.

Results

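Transcripts annotated as targets of nonsense-mediated decay (NMD) were examined in mouse intestinal tissue after daily cold water. A transcript was included when the deposited isoform table gave it the type nonsense-mediated decay and its mean over the 6 libraries was at least 1 FPKM (fragments scaled to transcript length and library size). Of 7204 NMD transcripts of any level in the table, 711 met this rule, which is 9.87%. They came from 628 genes and made up 3.38% of the 21041 transcripts that reached this level. One such transcript was included for 562 genes, 2 for 54 genes and 3 or more for 12 genes, with the most, 5, in Ppp1cc, a catalytic subunit of protein phosphatase 1. Transcripts of 1 gene share their reads and are not independent of each other. The transcripts were selected on their mean level over the libraries of both groups, so a transcript at 0 in one group entered through the other, and counts over the 711 transcripts are descriptions.

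Mice received 1 ml of water into the stomach once a day for 14 days. Cold water, for 3 libraries, had a temperature of 0 to 4 °C and was instilled at 8 am. Control water, for 3 libraries, had a temperature of 20 to 25 °C and was instilled at 9 am, with both groups housed at 22 °C. Treatment and hour of instillation cannot be told apart in this design, and no label gives a strain, sex or age, or says that each library came from a separate mouse. The p-values below therefore measure the spread between these libraries, which may be technical. The sample labels name the proximal jejunum, whereas the design text of the series names the colon. All 11 absorptive cell markers of the small intestine reached a mean of 1 FPKM, against 1 of 6 colon markers and 0 of 3 ileum markers. Total estimated counts were 72690433 to 78668871 per library, which the smallest count step of 3.75 to 3.77 puts at about 19281300 to 20867100 fragments. Summed B and plasma cell markers were at 12091 FPKM in cold water 1, against 2720 to 4356 FPKM in the other 5 libraries. In tissue of this kind, fewer cells of a type and less RNA per cell cannot be told apart.

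NMD is a surveillance pathway that degrades messenger RNAs whose translation stops too early. A ribosome that stops upstream of a remaining exon junction leaves an exon junction complex on the RNA, which recruits the helicase UPF1 and, after its phosphorylation by SMG1, the decay enzymes. Many RNA-binding proteins use the pathway to limit themselves: when abundant, they splice their own transcripts to include a poison exon or retain an intron with a stop codon. Because such transcripts are degraded, the level measured reflects both how often they are made and how fast they are lost, and these libraries measure the level alone.

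The sequences shown here surround the premature stop codons and splice junctions of 4 transcripts described below, and a stop codon in a retained intron. They were read 5′ to 3′ from the GENCODE M21 transcripts (build GRCm38). In a stop codon window the capitals mark the stop codon, and at a junction they mark the first bases of the downstream exon, with the end of the upstream exon in lower case. Slc51a and Alg9 show an exon skipped, Cdipt another acceptor site, Srsf3 a poison exon and Ddx5 a retained intron.
Slc51a ENSMUST00000231690 stop codon (chr16:32477558-32477587, minus strand): cctgttcctcatcccTGAcggcatctatga
Slc51a ENSMUST00000231690 junction over the skipped exon: agctctgcacccacgGTTTTATGCCGTATG
Slc51a coding ENSMUST00000042042 junction into that exon: agctctgcacccacgGTGGTATCTGTGTTC
Slc51a coding ENSMUST00000042042 junction out of it: aatggccataacctcGTTTTATGCCGTATG
Alg9 ENSMUST00000162073 stop codon (chr9:50789603-50789632, plus strand): cttagggtggccgttTAGtgcagctcttgg
Alg9 ENSMUST00000162073 junction over the skipped exon: ctgcagactaacaagGGCTGTGTGCAAGAA
Alg9 coding ENSMUST00000034561 junction into that exon: ctgcagactaacaagATTCTTGTATTCTAC
Alg9 coding ENSMUST00000034561 junction out of it: actttacttttataaGGCTGTGTGCAAGAA
Cdipt ENSMUST00000206170 stop codon (chr7:126979336-126979365, plus strand): cctgtgtgctggaaaTGAactcttctactg
Cdipt ENSMUST00000206170 junction: tactatacctctaggAAGTCCCTGTGGGTT
Cdipt coding ENSMUST00000032920 junction from the same donor: tactatacctctaggCCTGCTCTGTTCACC
Srsf3 ENSMUST00000037776 stop codon in the poison exon (chr17:29039470-29039499, plus strand): cttctcaccaccctcTGAatctgcattagc
Srsf3 ENSMUST00000037776 junction into the poison exon: tccacctcggcgcagAGTCACCATCATGTC
Srsf3 coding ENSMUST00000130216 junction that skips it: tccacctcggcgcagATCCCCAAGAAGGAG
Ddx5 ENSMUST00000133426 stop codon in the retained intron (chr11:106783942-106783971, minus strand): tccagagggctaggtTAGtacaaactcgaa

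In Slc51a the NMD transcript leaves out an exon of 74 nt, a length that is not a multiple of 3, and its stop codon lies 275 nt before the last junction. In Alg9 the skipped exon has 71 nt and the stop codon lies 1023 nt before the last junction. The Cdipt transcript uses an acceptor 64 nt upstream of the coding one, and its stop codon lies 50 nt before the last junction. The Srsf3 poison exon has 456 nt, with the stop codon 548 nt before the last junction. The Ddx5 intron has 1265 nt and puts the stop codon 1485 nt before the last junction.

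The same features were counted over all transcripts of the set. GENCODE M21 held 704 of the 711, 702 of them with the same NMD type, and gave a stop codon for 703. In 699 of the 703 the stop codon lay more than 50 nt before the last exon junction, the distance used in annotation as the rule for NMD. The 4 at 50 nt or less were Cdipt at 50, Tomm22 at 49, Ubl5 at 38 and Xaf1 at 29 nt, which were named after their values were seen. The median distance was 378 nt (quartiles 188.5 and 837.5), with a median of 3 junctions after the stop codon. The 6441 other annotated NMD transcripts of the table, which were below 1 FPKM, had a median distance of 328 nt and likewise 3 junctions. The coding region had a median of 363 nt in the set, against 299 nt in the others. The 3′ untranslated region had a median of 979 nt in the set, against 640 nt in the others. A start codon was annotated for 79.4% of the set and 70.1% of the others. In the plot of stop codon distances the bin over 200 and up to 400 nt holds the most transcripts, in the set and in the others. The bins widen with distance, so the tallest bar does not place a peak.

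**Figure D1:**
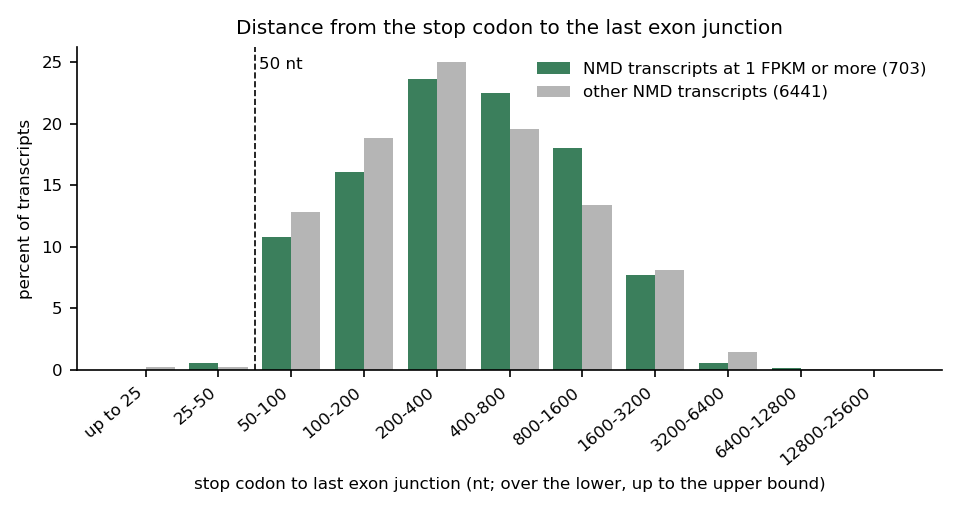
Percent of transcripts (vertical axis) by the distance in nt from the stop codon to the last exon junction (horizontal axis, bins that double in width from 50 nt on) for the 703 NMD transcripts at 1 FPKM or more and the 6441 other annotated NMD transcripts. Of the 703, 699 lie to the right of the dashed line at 50 nt.

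Compared with the leading coding isoform of the gene, the stop codon fell within exons that the coding isoform translates in 357 transcripts, 50.8% of the 703. It fell in a separate exon placed within an intron, the arrangement of a poison exon, in 121 (17.2%). It fell in an exon extended into an intron in 102 (14.5%) and in a retained intron in 29 (4.13%). In the 6441 others these shares were 56.1%, 20.1%, 10.4% and 1.21%. The most frequent single splicing difference was another donor or acceptor site, in 214 transcripts, 191 of which shifted by a length that is not a multiple of 3. One exon was skipped in 93 transcripts, and in 89 of these its length was not a multiple of 3. One exon was added in 94, with 60 such lengths, and 1 intron was retained in 29. Several differences were present in 223. The median share of the gene's count was close in these classes, 11.8% with 1 exon skipped, 10.5% with 1 added, 12.7% with another splice site and 10.6% with 1 intron retained. Across the 703 transcripts, which share the same 6 libraries, mean share and stop codon distance had a Spearman rho of 0.30, given as a description.

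Most of these transcripts were minor isoforms at low level. Their mean level had a median of 2.54 FPKM (quartiles 1.53 and 5.58), 98 reached 10 FPKM and 4 reached 100 FPKM. The share of a transcript is its estimated count as a percent of the summed count of all transcripts of its gene. The mean share over the 6 libraries had a median of 13.3% (quartiles 5.25 and 31.7%). It was below 1% in 43 transcripts, 1 to 10% in 249, 10 to 50% in 319 and at least 50% in 100, of which 15 were at 90% or more. The NMD transcript was the leading isoform of its gene in all 6 libraries for 44 transcripts, in 1 to 5 libraries for 261 and in none for 406. Among the 10 with the highest mean share, each share was 100% wherever the gene was counted, since no other transcript of the gene had a count, and 8 of the 10 genes were predicted genes named by number. Gm20716, one of these, had 6071 counts in cold water 1 and 0 in the other 5 libraries. At the threshold, Pde6d at 1.00, Rabggtb at 1.01 and Stk16 at 1.01 FPKM lay just inside, and Akap8 at 0.999, Rnpepl1 at 0.998 and Snapc3 at 0.997 FPKM just outside.

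Shares were compared between cold water and control over 18433 transcripts at this level or above whose gene had another counted transcript, 700 of them in the set. The test was limma on the log2 odds of the share, the transcript's count over that of the gene's other transcripts with 4 counts added to each, with Benjamini-Hochberg adjustment over all 18433. At an adjusted p under 0.05, 3 of the 700 NMD transcripts passed, or 0.429%: Alg9 was higher, and Slc51a and Ndfip1 were lower, in cold water. Over all transcripts tested, 44 passed, which is 0.239%, with 0.125% higher and 0.114% lower. Without adjustment 36 of the 700 were under 0.05, 5.14%, against a background of 4.94%. The 3 cold water shares lay wholly above or below the 3 control shares in 81 of the 700, 35 higher and 46 lower, or 11.6%. The background was 11.9% in either direction, 5.85% higher and 6.04% lower. The log2 odds were higher in cold water for 355 transcripts and lower for 345, with a median difference of 0.016, against -0.0066 over all transcripts. For the 34 transcripts whose libraries of a group were all at 0, the bound that 3 fragments allow has the same sign as the fitted value, so the median at that bound is 0.016 by construction. The NMD transcripts were near the background in the percent under an unadjusted p of 0.05 and in the percent without overlap. Whether 3 of 700 differs from the background of 0.239% was not tested.

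Slc51a encodes the alpha subunit of the organic solute transporter, which exports bile acids across the basolateral membrane of enterocytes. Its NMD transcript ENSMUST00000231690 (chromosome 16, 32475523 to 32487703, minus strand, in the deposited table) had estimated counts of 0, 0 and 0 in cold water 1, 2 and 3, against 1931, 2637 and 3316 in control 1, 2 and 3. Its share was 0% in each cold water library, against 6.53, 12.1 and 11.2% in the control libraries, so the groups did not overlap. A count of 0, with 3 fragments or 12 counts as its limit in each library, allows shares of up to 0.0478, 0.0530 and 0.0472% in cold water 1, 2 and 3. Against this limit the mean share was at least 201-fold lower in cold water. The fitted difference was -9.34 ± 0.45 (SE) on the log2 odds scale with an adjusted p of 0.00335 by limma, and its size depends on the 4 counts added. The gene as a whole had 333 ± 51.9 CPM in cold water libraries and 362 ± 78.5 CPM in control libraries (SD, n = 3 each), a log2 difference of -0.12 with an adjusted p of 0.965 by edgeR. The coding isoform ENSMUST00000042042 took 98.2, 98.2 and 98.7% of the gene in cold water, against 92.9, 87.3 and 87.4% in control. Pcyt1a, on the opposite strand, overlaps Slc51a and held 17.1% of the counts of the pair, and whether the counting used strand is not given in the sources used here.

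Ndfip1 encodes a membrane adaptor that recruits ubiquitin ligases of the Nedd4 family. Its NMD transcript ENSMUST00000236480 likewise had counts of 0, 0 and 0 in the cold water libraries, against 625, 361 and 465 in the control libraries. Its share was 0% in each cold water library, against 18.9, 13.3 and 9.81% in control 1, 2 and 3, with no overlap. The limits on the cold water shares were 0.228, 0.333 and 0.217%, which puts the mean share at least 54.0-fold lower in cold water. The adjusted p was 0.00677 by limma. The transcript differs from the leading coding isoform at 2 splice sites, by 58 and by 16 nt, and its stop codon lies 106 nt before the last junction. The coding isoform ENSMUST00000025293 had 40.7, 56.6 and 41.5% in cold water, against 32.8, 30.9 and 73.5% in control. Another coding isoform, ENSMUST00000236085, had 47.9, 20.8 and 57.6% in cold water, against 45.6, 52.8 and 14.2% in control, and for both the groups overlapped. The gene averaged 65.5 ± 18.1 CPM in cold water and 48.4 ± 17.2 CPM in control (SD, n = 3 each), with an adjusted p of 0.884 by edgeR.

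Alg9 encodes an endoplasmic reticulum mannosyltransferase that builds the lipid-linked oligosaccharide used for N-glycosylation. Its NMD transcript ENSMUST00000162073 (chromosome 9, 50775305 to 50843542, plus strand) had counts of 1671, 1009 and 736 in cold water 1, 2 and 3, against 7, 2 and 3 in control 1, 2 and 3. Its share was 67.5, 45.9 and 40.3% in cold water, against 0.315, 0.0884 and 0.142% in control. All 3 cold water libraries were high and all 3 control libraries near 0. The difference was 8.24 ± 0.58 (SE) on the log2 odds scale, with an adjusted p of 0.0107 by limma. The coding isoform ENSMUST00000034561 had the lower share in cold water, with 32.2, 53.6 and 59.3% in cold water, against 98.0, 99.5 and 99.1% in control. The log2 difference of the whole gene was -0.01, with an adjusted p of 0.997 by edgeR. The opposite-strand gene 1110032A03Rik overlaps Alg9 and held 30.2% of the counts of the pair. The calls of Slc51a, Ndfip1 and Alg9 held with each library left out, cold water 1 included, but all 3 were lost with the replicate number as a block, with adjusted p of 0.154, 0.186 and 0.154 by limma. On an arcsine scale of the share, Alg9 missed the threshold, with an adjusted p of 0.0713 by limma and a range over its 16 alternatives of 0.000509 to 0.154, the block included.

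**Figure D2:**
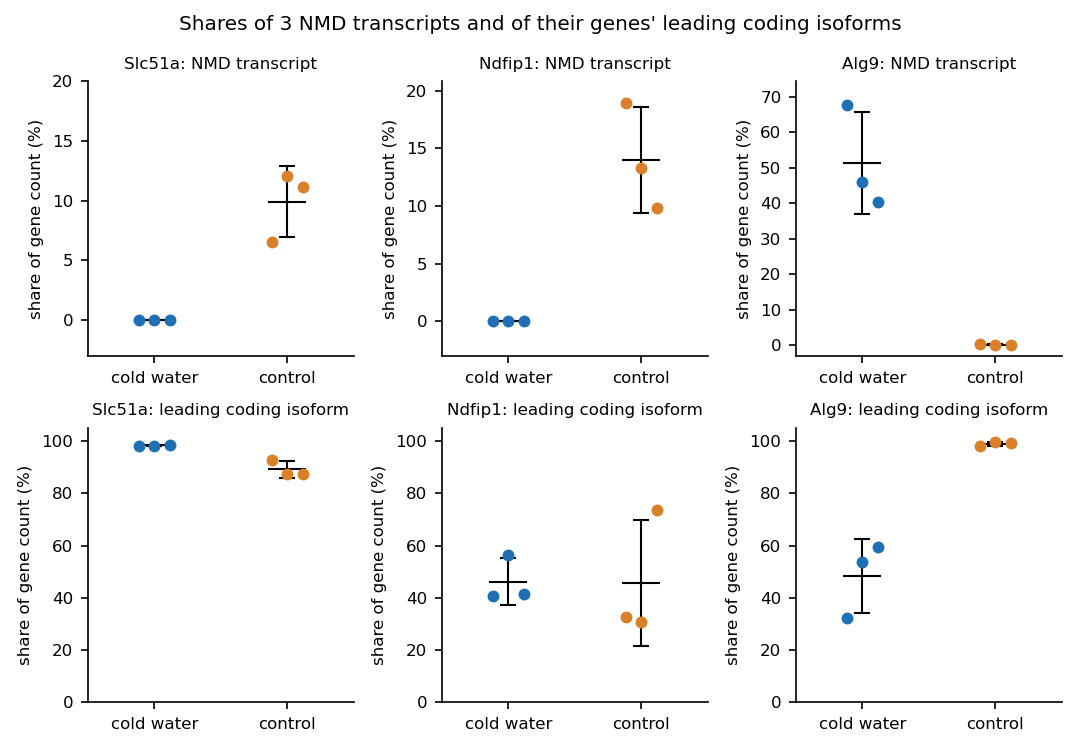
Share of the gene's estimated count in percent (vertical axes) for the NMD transcripts of Slc51a, Ndfip1 and Alg9 (upper row) and the leading coding isoform of each gene (lower row), in the cold water and control groups (horizontal axes). Points are libraries, and lines are the mean ± SD of 3. The NMD shares of Slc51a and Ndfip1 are 0% in all cold water libraries, and that of Alg9 is 40.3 to 67.5% there, against under 1% in control.

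The other types of transcript in the same fit gave a scale for these numbers. Of 13194 protein coding transcripts 38 passed, and of 3237 retained intron transcripts 1 passed. The spread within groups was wider for NMD transcripts: the median SD of the log2 odds was 1.53, against 0.998 for protein coding and 0.664 for retained intron transcripts. At least 1 library was at a count of 0 for 33.9% of the NMD transcripts tested, against 12.6% of protein coding and 3.24% of retained intron transcripts. These types differ in level and in share as well, with median mean shares of 13.0% for NMD, 63.8% for protein coding and 6.13% for retained intron transcripts, and the part of this in the spread was not tested. The plot of mean shares shows the 3 that passed at the edges of a cloud around the diagonal.

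**Figure D3:**
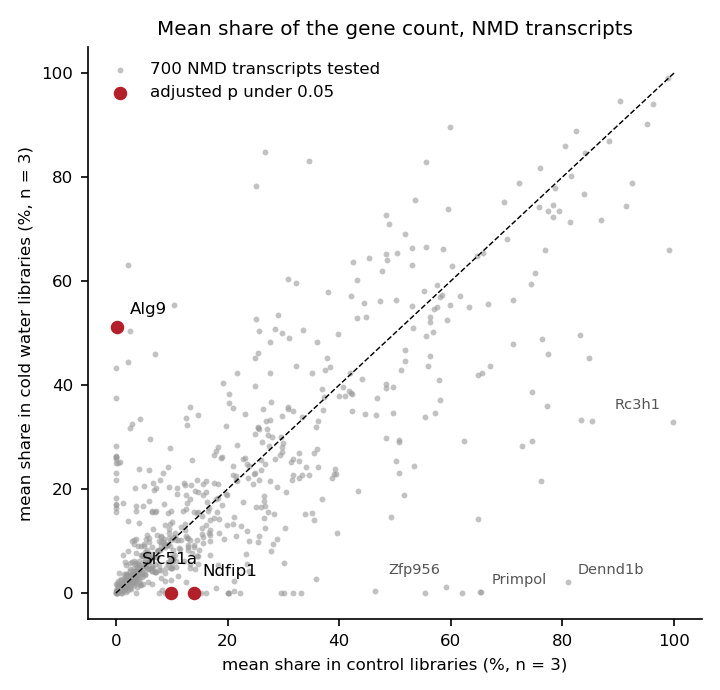
Mean share of the gene's count in the cold water libraries (vertical axis, percent, n = 3) against that in the control libraries (horizontal axis, percent, n = 3) for the 700 NMD transcripts tested. Red points passed at an adjusted p under 0.05, and names in grey mark other transcripts whose groups did not overlap and whose mean shares differed by over 50 percentage points. The dashed line marks equal shares.

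Below the 3 that passed, the lowest adjusted p was 0.259 by limma, so the following are given as values. Dennd1b, an exchange factor for Rab GTPases, had an NMD transcript with 193 nt of neighbouring exons skipped, at 6.27, 0 and 0% of the gene in cold water, against 82.7, 85.7 and 74.4% in control. The coding isoform ENSMUST00000168527 held 86.0, 90.7 and 93.5% in cold water, against 1.38, 1.49 and 17.8% in control. The coding isoform led in the 3 cold water libraries and the NMD transcript in the 3 control libraries, at a mean level of 1.07 FPKM. Dennd1b passed on an arcsine scale, with an adjusted p of 0.0459 by limma, and without cold water 1, with 0.0217, in a range over its 15 alternatives of 0.0217 to 1.00. Zfp956, a zinc finger gene, had an NMD share of 2.75, 0.840 and 0% in cold water, against 50.2, 88.3 and 39.1% in control. It was the leading isoform in 2 libraries, control 1 and 2. Lrrc45, a centrosome linker protein, had 0, 0 and 0% in cold water, against 3.11, 53.1 and 34.3% in control. The groups did not overlap for Lrrc45, but control 1 lay near the cold water values. Lrrc45 passed by diffSpliceDGE, with an adjusted p of 0.00337, and without control 1 by limma, with 0.0234, in a range over its 15 alternatives of 0.00337 to 0.880. Rc3h1 and Primpol, named after their values were seen, also had means over 50 points apart without overlap, yet cold water 2 of Rc3h1 stood at 99.0% beside 0 and 0%, against 99.8 to 99.9% in control.

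Cdipt, which makes phosphatidylinositol, held 2 NMD transcripts of the set whose share differences had opposite signs. ENSMUST00000206170, with its stop codon 50 nt before the last junction, had 12407, 12047 and 13131 counts in cold water 1, 2 and 3, against 246, 2326 and 2448 in control 1, 2 and 3. Its share was 84.6, 82.5 and 82.2% in cold water, against 5.39, 52.5 and 45.9% in control, a log2 odds difference of 3.70 ± 1.21 (SE) with an adjusted p of 0.893 by limma. The 3 cold water libraries lay close together above all control libraries, of which control 1 was far below the other 2. ENSMUST00000206794 had 1.93, 1.83 and 1.295% in cold water, against 7.76, 6.48 and 5.08% in control, while its counts were 283, 267 and 207 in cold water and 354, 287 and 271 in control. The gene as a whole had a log2 difference of 1.69, with an adjusted p of 0.135 by edgeR, the lowest among the 628 genes that hold an NMD transcript of the set.

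Xaf1, an interferon-induced antagonist of the apoptosis inhibitor XIAP, showed a share that rests on the other isoforms. Its NMD transcript, with a 196-nt exon skipped, had 173, 178 and 178 counts in cold water, against 163, 112 and 365 in control. Its share was 13.2, 11.8 and 15.5% in cold water, against 2.82, 4.59 and 5.07% in control, with a log2 odds difference of 1.88 ± 0.42 (SE) and an adjusted p of 0.524 by limma. Its counts overlapped between the groups while its shares did not, and the gene averaged 17.9 ± 2.65 CPM in cold water and 69.8 ± 36.4 CPM in control (SD, n = 3 each). The median of 63 interferon-response genes was 14.96, 14.96 and 11.8 FPKM in cold water 1, 2 and 3, against 27.3, 16.7 and 40.1 FPKM in control 1, 2 and 3. Among those 63 genes 60 were lower in cold water and 34 had an unadjusted p under 0.05, against a background of 5.01%, and 0 passed the adjusted threshold by edgeR. The list held 7 NMD transcripts, and 0 passed the threshold by limma, against a background of 0.239%. A higher share in cold water was seen for 6 of the 7, against 49.7% of all transcripts. Only 1 of the 7, Xaf1, had an unadjusted p under 0.05 by limma. Irf7, a transcription factor of the interferon response, had 4.62, 7.17 and 5.95% in cold water, against 0, 0 and 4.89% in control, so control 3 lay inside the cold water range.

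**Figure D4:**
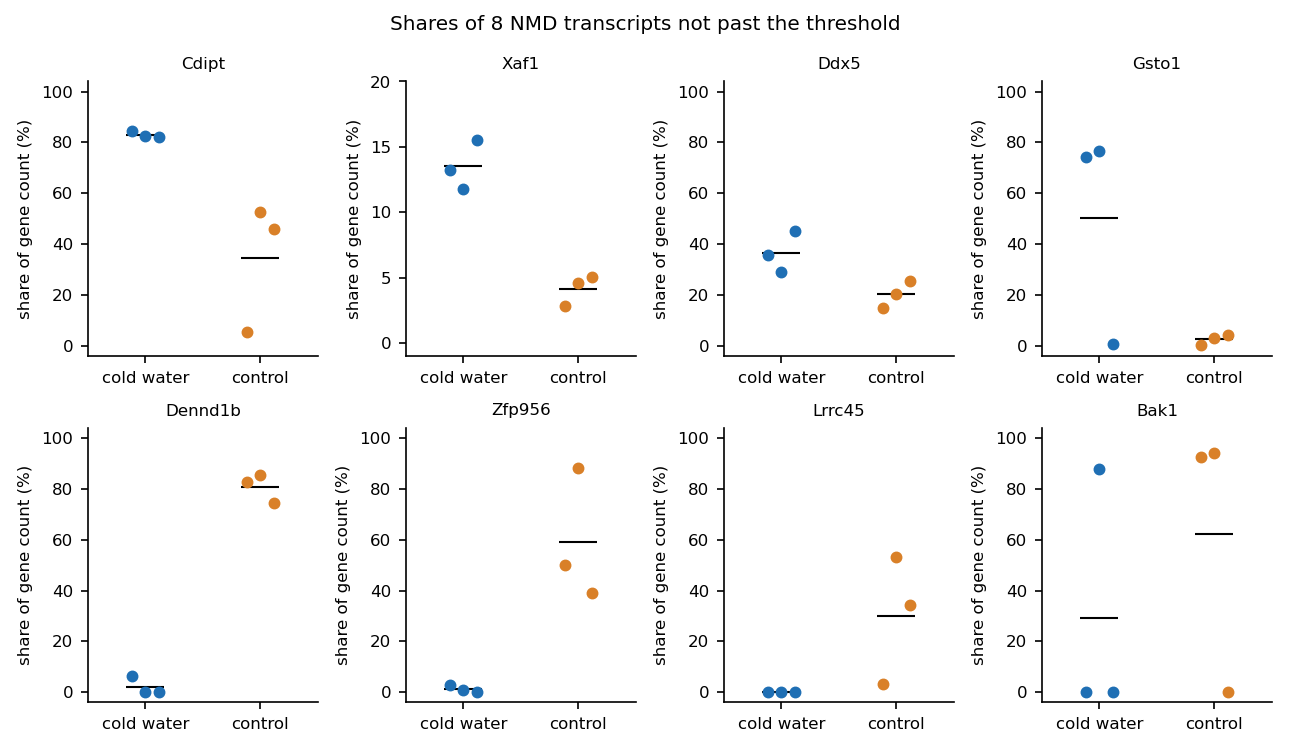
Share of the gene's estimated count in percent (vertical axes, each panel with its own range) for 8 NMD transcripts that did not pass the threshold, in the cold water and control groups. Points are libraries and lines are means of 3. For Gsto1 and Bak1 single libraries of a group stand at opposite ends of the range, and for Cdipt, Xaf1, Ddx5, Dennd1b, Zfp956 and Lrrc45 the groups do not overlap.

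Many shares differed as much between libraries of 1 group as between groups. The range of a transcript's share over the 6 libraries had a median of 18.9 percentage points, and 169 transcripts ranged over more than 50 points. Within a group the range was over 50 points for 91 transcripts in cold water and 106 in control, and in either group for 154, or 21.7%. The same held for 19.9% of protein coding and 6.15% of retained intron transcripts. In 196 transcripts at least 1 library was at a count of 0 while another gave the transcript at least 10% of its gene. Mean shares of the groups differed by over 50 points in 14 transcripts, and in 5 of these the groups did not overlap. No matching count for the other types is given here, so whether 5 is many was not tested.

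Bak1, a pore-forming protein of apoptosis, showed this most plainly among the transcripts with the highest levels. Its NMD transcript had 0, 88.0 and 0% in cold water 1, 2 and 3, against 92.7, 94.2 and 0% in control 1, 2 and 3, and the coding isoform took nearly all of the rest. The 2 isoforms differ by 5 nt at 1 splice site. Gsto1, an omega-class glutathione transferase, had 74.1, 76.7 and 0.614% in cold water, against 0.374, 2.88 and 4.37% in control. Cold water 3 thus lay with the control libraries. Map2k2, the kinase MEK2, had 52.8, 0.0938 and 57.2% in cold water, against 49.5, 0.183 and 33.5% in control, low in replicate 2 of both groups. Anxa4, a calcium-dependent phospholipid-binding protein, had 73.1, 44.8 and 73.1% in cold water, against 1.15, 87.8 and 38.5% in control. In all 4 genes the groups overlapped and the summed level of the gene differed by a log2 difference of at most 0.08.

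Other abundant NMD transcripts kept a steady share. B4galnt1, a ganglioside synthase, had 62.4, 61.7 and 64.4% in cold water, against 62.5, 54.7 and 63.2% in control, and was the leading isoform in all 6 libraries at a mean of 106 FPKM. Ndufs6, a subunit of respiratory complex I, had 41.1, 39.5 and 36.1% in cold water, against 41.2, 39.7 and 44.2% in control. Tmem41a had 51.8, 52.5 and 46.0% in cold water, against 52.0, 61.8 and 56.8% in control. In these 3 genes the groups overlapped, and the widest range over the 6 libraries was that of Tmem41a, 46.0 to 61.8%. The heat map of 29 of the 30 most abundant sets steady and switching transcripts side by side.

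**Figure D5:**
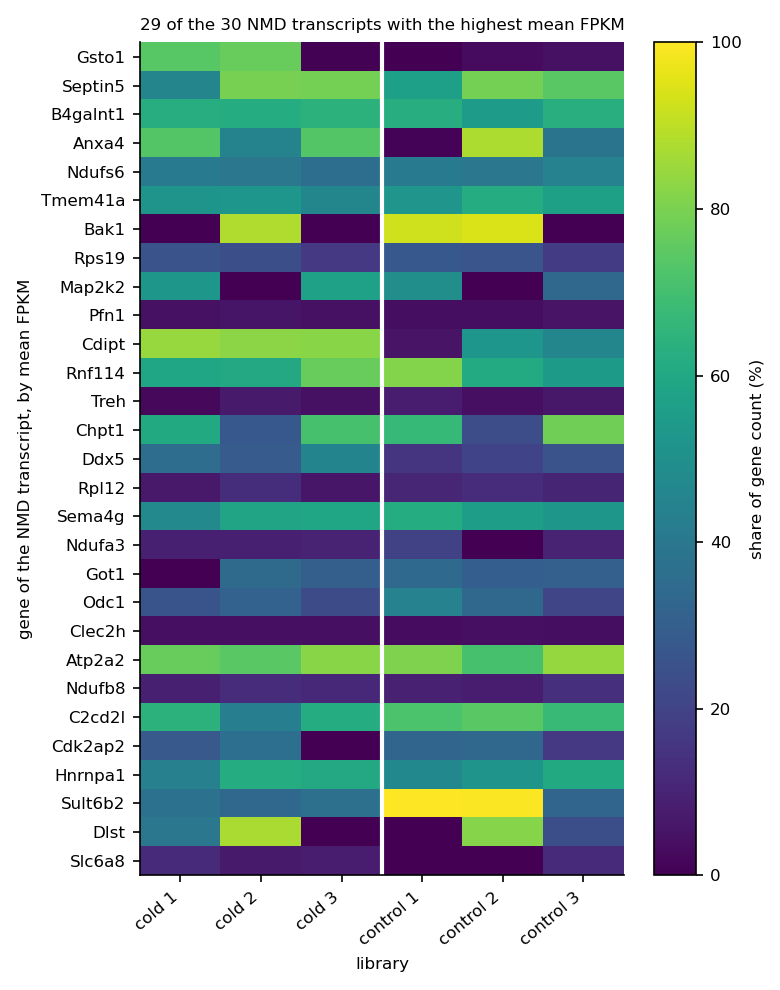
Share of the gene's estimated count (colour, 0 to 100%) of 29 of the 30 NMD transcripts with the highest mean FPKM (one line each, named by gene, highest level at the top) in cold water 1 to 3 (left) and control 1 to 3 (right). Lines such as B4galnt1 and Ndufs6 keep 1 colour, whereas Bak1, Map2k2, Gsto1 and Dlst change between libraries of the same group.

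Of the genes whose products carry out NMD, 32 were tested at gene level, 23 higher and 9 lower in cold water (median log2 difference 0.08), and 0 passed the threshold by edgeR, against a background of 0.0386% of 12940 genes. Upf1, the central helicase, had 61.4, 60.3 and 66.5 CPM in cold water, against 43.8, 54.9 and 50.1 CPM in control, without overlap, and was the sole gene of the list with an unadjusted p under 0.05 (adjusted p of 0.878 by edgeR). Upf2, which bridges UPF1 to the exon junction complex, averaged 25.6 ± 0.730 CPM in cold water and 21.5 ± 1.25 CPM in control (SD, n = 3 each), with the same adjusted p. Rbm8a, of the same list, was lower, with 53.8, 56.9 and 52.2 CPM in cold water, against 71.9, 63.1 and 58.6 CPM in control. Its groups did not overlap, and its adjusted p was also 0.878 by edgeR. Over the list, 3 genes were higher and 1 was lower without overlap. The percents of all genes that were higher or without overlap are not given here, so these counts lack a background. Mov10, an RNA helicase that binds UPF1, held the sole NMD transcript of the set from this list, at 2.89, 0 and 72.2% in cold water, against 0.193, 0 and 0% in control. Of 39 genes tested that are known as NMD targets in other systems, 18 were higher and 21 lower, with a median log2 difference of -0.01. Of the 39, 0 passed by edgeR, against the background of 0.0386%. Their 10 NMD transcripts of the set also included 0 that passed by limma, against a background of 0.239%. Of the 10, 1 had a higher share in cold water, against 49.7% of all transcripts. Ccnl2, a cyclin that acts in splicing, had 0, 0 and 0% in cold water, against 82.9, 83.2 and 0% in control. Ccnl1, its relative, had 24.0, 31.8 and 27.1% in cold water, against 42.3, 36.9 and 28.9% in control.

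Splicing factors held 41 NMD transcripts in 31 genes, the largest group among the lists, and 0 passed by limma, against a background of 0.239%. A higher share in cold water was seen for 25 of the 41, against 49.7% of all transcripts. Their median log2 odds difference was 0.14. Of the 41, 1 had an unadjusted p under 0.05 by limma, against a background of 4.94%. In 10 of the 41 the groups did not overlap, against 2192 of all 18433 transcripts, or 11.9%. The part among the 41 was the larger, and the difference was not tested. Ddx5, an RNA helicase, had 35.8, 28.8 and 45.1% of its count in the retained-intron NMD transcript in cold water, against 14.9, 20.2 and 25.5% in control, so the groups did not overlap. Its log2 odds difference was 1.20 ± 0.48 (SE) with an adjusted p of 0.893 by limma. Srsf3, which regulates itself through its poison exon, had 34.3, 23.4 and 23.6% in cold water, against 28.4, 30.7 and 30.1% in control. Srsf2 had 4.91, 3.37 and 4.61% in cold water, against 3.99, 2.74 and 3.99% in control, and both of these factors overlapped between the groups. Rbm3, a cold-inducible RNA-binding protein, had 19.2, 16.8 and 28.9% in cold water, against 4.39, 19.1 and 0% in control, with overlap. Hnrnpa1, an abundant binder of nascent RNA, held 2 NMD transcripts, of which ENSMUST00000230489 had 43.6, 61.8 and 60.3% in cold water, against 46.7, 51.6 and 60.7% in control, with overlap. The other, ENSMUST00000230171, had 5.87, 8.46 and 7.56% in cold water, against 13.2, 8.97 and 9.71% in control, without overlap and with an adjusted p of 0.893 by limma. At gene level 96 splicing factors were tested, 51 higher and 45 lower in cold water, and 0 passed by edgeR, against a background of 0.0386%.

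Ribosomal protein genes held 14 NMD transcripts in 12 genes, with a median mean share of 1.38%. Of these, 7 had a higher share in cold water, against 49.7% of all transcripts, and 0 passed by limma, against a background of 0.239%. Rps19 had 25.6, 24.0 and 16.5% in cold water, against 27.5, 26.4 and 17.2% in control. Rpl12, whose worm counterpart limits itself through an NMD transcript, had 6.84, 12.9 and 6.02% in cold water, against 10.9, 12.7 and 10.4% in control. Rpl13a ENSMUST00000209212 had 2.23, 2.40 and 2.53% in cold water, against 2.79, 2.29 and 3.88% in control. In each of these genes the groups overlapped. At gene level 80 of 87 ribosomal protein genes were lower in cold water (median log2 difference -0.17), and 0 passed by edgeR, against a background of 0.0386%. The percent of all genes that were lower is not given here. The 87 genes share the same 6 libraries and are not independent, so this count is a description. The brush border and absorption list held 5 NMD transcripts and the mitochondrial list 4. Of these, 0 passed by limma, against the background of 0.239%. In the genes of the brush border list, whose products digest and take up nutrients, the 5 mean shares were 0.142 to 8.73%.

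Levels were tested apart from shares, by edgeR's quasi-likelihood test on the estimated counts of 21041 transcripts. Of the 711 NMD transcripts 0 passed, against a background of 0.0285%, and the lowest adjusted p was 0.103. Without adjustment 35 were under 0.05, 4.92%, against a background of 4.73%. DESeq2 on the same counts called 26 of the 711, against 585 of all 21041 transcripts, or 2.78%. The 26 included Slc51a, Ndfip1, Alg9, Lrrc45, Zfp956, Tmem41a, Ccnl2, Primpol, Pde6d, Ddx5 and Cdipt ENSMUST00000206170. Of the 628 genes that hold these transcripts 0 passed by edgeR, against a background of 0.0386% of genes. In cold water 275 were higher, and 35, or 5.57%, had an unadjusted p under 0.05, against a background of 5.01%.

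Summed over the whole set, the NMD transcripts took 13.1, 13.1 and 13.9% of the counts of their 628 genes in cold water 1, 2 and 3, against 12.1, 14.1 and 12.1% in control 1, 2 and 3. The means were 13.4 ± 0.501% in cold water and 12.8 ± 1.14% in control (SD, n = 3 each), a difference of 0.596 points, and the groups overlapped. All 7204 NMD transcripts took 1.05, 1.01 and 1.07% of the library in cold water, against 1.02, 1.11 and 0.919% in control. The number of the 711 transcripts at a count of 0 was 78, 97 and 92 in cold water, against 94, 85 and 83 in control. Their median share in a library was 8.58, 8.54 and 8.71% in cold water, against 8.44, 8.16 and 9.26% in control. By each of these sums the 2 groups overlapped.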

How the data were processed

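RNA was measured in 6 libraries of intestinal tissue, 3 from the cold water and 3 from the control group, with groups taken from the sample titles. Per the labels' protocols, total RNA was depleted of ribosomal RNA and read from both ends. The submitters' processing notes name HISAT2 2.0.4 and StringTie 1.3.4d beside edgeR, DESeq2, FastQC 0.10.1 and cutadapt 1.9. Which tool did what, which genome build was used and whether counting kept strand is not given in the sources used here. Per the file headers, the authors deposited an FPKM value and an estimated count for each of 142604 transcripts in each library. In the values, a transcript with a count of 0 was listed at 0.0001 FPKM, and the estimated counts were whole numbers proportional to FPKM times transcript length, so they are estimates from coverage, with about 3.75 to 3.77 counts to a fragment. How reads were divided among the transcripts of a gene is the authors' estimate, and any limit given covers counting error only.

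Shares were formed from counts summed by gene symbol. They were compared with limma 3.58.1 (two-sided, trend in the prior, 4 counts added) and levels with edgeR 4.0.16 in R 4.3.3 (quasi-likelihood, TMM), with group as the sole term and Benjamini-Hochberg adjustment over all features of a fit. CPM values are relative to the TMM-scaled total. The tests were tried on simulated data. Stop codons, exon junctions and sequences came from GENCODE M21 (GRCm38), in which 703 of the 711 transcripts had the deposited coordinates. The leading coding isoform is the protein coding transcript of the gene with the highest mean level. Alternatives were DESeq2 1.42.0, edgeR's diffSpliceDGE, other added counts, scales, filters and denominators, a replicate block and leaving out each library.

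Members and gene lists were chosen with earlier results of these data known. Named transcripts were those past the threshold, up to 10 in each direction with the smallest unadjusted p among those whose groups did not overlap, the 10 highest by FPKM and by share, 3 on each side of 1 FPKM and up to 8 in each of 5 lists by level. At gene level the rule took up to 4 genes of a list by unadjusted p, and only some are printed. Some transcripts that meet these rules are not reported here.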

Additional observations from a re-analysis of the deposited data

How the results depend on the processing

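The 3 NMD transcripts past the threshold kept their direction under every alternative run. Slc51a and Ndfip1 stayed past it under 15 of 16 alternatives and Alg9 under 14. On an arcsine scale Alg9 had an adjusted p of 0.0713, with a range over its alternatives of 0.000509 to 0.154. Again 3 of the NMD transcripts passed with 1 or 16 counts added, with filters at 0.1 or 2 FPKM, with shares of FPKM, and with genes grouped by ID. With edgeR's diffSpliceDGE 6 of the 666 NMD transcripts tested passed, against 51 of all 13649 transcripts tested, or 0.374%. Leaving out 1 library gave 5 to 10, namely 6, 8 and 6 without cold water 1, 2 and 3, and 5, 8 and 10 without control 1, 2 and 3. Of the transcripts described whose share did not pass otherwise, Rc3h1 passed without cold water 2, with an adjusted p of 0.00653 by limma. Likewise Primpol passed without control 2 (0.00827), and Ccnl2 (0.0160) and Irf7 (0.0311) without control 3. Each did so in 1 of its share alternatives, with a highest adjusted p over them of 0.978 to 1.00. Over all transcripts, where 44 shares passed, a filter at 0.1 FPKM gave 78, and leaving out 1 library gave 47 to 80 (47, 64 and 69 without cold water 1, 2 and 3, and 67, 80 and 76 without control 1, 2 and 3).

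With the replicate number as a block, 0 shares passed over all transcripts and 0 among the NMD transcripts, with adjusted p of 0.154 for Slc51a, 0.186 for Ndfip1 and 0.154 for Alg9, and 0 transcript levels passed. The block leaves fewer degrees of freedom, and what part this had in the loss was not tested. Deviations from the group means had correlations between same-numbered libraries of -0.034, 0.031 and 0.092 over transcripts for replicates 1, 2 and 3. Over genes these correlations were -0.0062, 0.238 and 0.439. Same-numbered libraries were not taken as pairs, since not all 3 correlations were over 0.1. Over genes replicates 2 and 3 were above that limit, and whether same-numbered libraries are related was not tested. Summed smooth muscle markers were at 791, 1277 and 314 FPKM in cold water 1, 2 and 3, against 645, 1543 and 159 FPKM in control 1, 2 and 3, highest in replicate 2 and lowest in replicate 3 of both groups. With the block 0 of the NMD transcript levels and 0 of their 628 genes passed, as without it.

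For levels, where 6 of all transcripts and 0 of the NMD transcripts passed by edgeR, DESeq2 called 585 and 26, and limma on log2(FPKM + 1) called 23 and 2, which were Slc51a and Ndfip1. Without a filter on low values 0 of all transcripts passed, and leaving out 1 library gave 0 to 10, with 10 without control 3 and 0 without each of the other 5. Of the genes that hold an NMD transcript, 3 passed by DESeq2 and 1, Cdipt, by limma, against 0 by edgeR. The percent of all genes that passed by DESeq2 or limma is not given here, so these 2 counts lack a background. The difference in summed share, 0.596 points, was 0.256 to 1.26 with 1 library left out. The cause of these differences between tools was not tested. Depth limits what a count of 0 allows, up to 0.0530% of the gene for Slc51a and 0.333% for Ndfip1 in a cold water library.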
